A study of Mus musculus with 16 samples.

Results

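*Lct*, *Sis*, *Treh*, *Mgam* and *Prdm1* were followed through single cells of the mouse small intestine at postnatal day 16. They are 4 genes of brush-border sugar-splitting enzymes and 1 gene of a transcriptional repressor, and were taken by symbol from the 24421 genes listed. All 5 are listed in both matrices, and the question was whether *Lct* and *Sis* occur in the same or in separate enterocytes and whether the genotypes differ in this. The cells came from intestinal crypts of untreated outbred mice at postnatal day 16. One group is labelled wild-type (WT). The other group was ROBO, which stands for RSPO3 Crainbow: in ROBO(+/−):VilCre(+/−) mice, cells in which Cre has acted express RSPO3, PTPRKe1:RSPO3e2–5 or PTPRKe1–7:RSPO3e2–5, each with a fluorescent barcode, while cells in which it has not carry the FAP-Mars1 marker. Cre was driven by the Villin promoter, which is active in the intestinal epithelium from before birth, so recombination is limited to that epithelium and precedes sampling, and the matrices do not say which of the 3 transgenes a cell expressed. Single cells were captured as droplets, and transcripts were primed at the 3′ end with a barcode that carries a unique molecular identifier (UMI), and 1 UMI stands for 1 captured molecule. GEO lists 8 samples for each genotype. How many mice they stand for is not given in the sources used here.

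Lactase, the product of *Lct*, splits the milk sugar lactose at the enterocyte surface and is the main disaccharidase of the suckling mouse. Sucrase-isomaltase (*Sis*) and maltase-glucoamylase (*Mgam*) split sucrose and the breakdown products of starch, and trehalase (*Treh*) splits trehalose; these are enzymes of solid food and are known to rise as pups are weaned, while lactase falls. *Prdm1* encodes BLIMP1, a repressor that is known to be present in the intestine of suckling pups, to fall toward weaning and to hold back the adult enzymes, *Sis* among them.

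In GENCODE M21 (GRCm38), *Lct* (ENSMUSG00000026354.8) lies on the minus strand of chr1:128284756-128328318, *Sis* (ENSMUSG00000027790.14) on the minus strand of chr3:72888557-72967863, *Mgam* (ENSMUSG00000068587.9) on the plus strand of chr6:40628831-40769123, *Treh* (ENSMUSG00000032098.13) on the plus strand of chr9:44673233-44686305 and *Prdm1* (ENSMUSG00000038151.13) on the minus strand of chr10:44437177-44528501. All 5 are protein-coding. The matrices give symbols only, so these positions rest on the symbol. The promoters of *Lct*, *Sis* and *Mgam* are shown because the levels of these 3 genes carry the results. Each stretch of 300 bases is from RefSeq on GRCm38.p6, in the direction of the gene, with 250 bases before the start site and 50 bases from it on. The *Lct* promoter is chr1:128328269-128328568 (minus strand), the *Sis* promoter chr3:72967814-72968113 (minus strand) and the *Mgam* promoter chr6:40628581-40628880 (plus strand). Capitals mark GTGAAAG, the core of the sequence that BLIMP1 is known to bind.
Lct: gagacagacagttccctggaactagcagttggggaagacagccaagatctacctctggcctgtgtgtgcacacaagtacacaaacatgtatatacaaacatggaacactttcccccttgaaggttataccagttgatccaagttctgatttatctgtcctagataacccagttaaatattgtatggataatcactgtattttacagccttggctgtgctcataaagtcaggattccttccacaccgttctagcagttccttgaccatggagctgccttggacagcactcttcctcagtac
Sis: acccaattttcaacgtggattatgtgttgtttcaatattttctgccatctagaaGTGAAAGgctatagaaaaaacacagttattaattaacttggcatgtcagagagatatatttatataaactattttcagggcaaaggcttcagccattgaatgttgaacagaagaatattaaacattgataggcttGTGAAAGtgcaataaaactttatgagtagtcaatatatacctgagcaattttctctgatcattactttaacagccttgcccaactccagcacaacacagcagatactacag
Mgam: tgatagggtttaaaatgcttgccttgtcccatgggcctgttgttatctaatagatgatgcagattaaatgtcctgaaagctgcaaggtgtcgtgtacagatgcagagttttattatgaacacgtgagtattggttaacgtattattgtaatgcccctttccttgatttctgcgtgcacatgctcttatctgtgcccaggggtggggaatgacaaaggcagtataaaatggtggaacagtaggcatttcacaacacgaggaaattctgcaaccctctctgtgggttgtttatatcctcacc
The *Sis* promoter held GTGAAAG 2 times, both on the strand of the gene, with first bases 196 and 61 bases before the start site. The promoters of *Lct*, *Mgam*, *Treh* and *Prdm1* did not hold these letters on either strand, and 4.24% of all 32851 promoters in the table did. This core was chosen with the sequences in view. TTTAT, a core bound by CDX factors, was found 2 times in the *Lct*, 4 times in the *Sis* and 3 times in the *Mgam* promoter and in neither of the other two, against 40% of all promoters. GATAA, a core bound by GATA factors, was found 3 times in the *Lct* and 2 times in the *Mgam* promoter and not in that of *Sis*, against 25.4% of all promoters. One of the TTTAT matches in *Lct* overlaps a GATAA match. GTTAAT, a sequence found in sites of HNF1 factors, was found 1 time, in *Sis*, against 7.1% of all promoters. These matches describe letters and do not show binding.

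The WT matrix holds 1348 cells with 2682127 UMIs and the ROBO matrix 1249 cells with 2428435 UMIs. The median was 1492 UMIs per cell in WT and 1610 in ROBO. A cell is named by its genotype and a serial number. No cell could be traced to any of the 16 samples, and barcodes that libraries share could not be counted. Each genotype was therefore 1 pooled sample, no test between genotypes could be made, and all intervals below are 95% intervals for counting error only. Clustering without the 5 members gave 12 clusters, of which 4, with 505 WT and 487 ROBO cells, carried enterocyte markers and are called enterocyte-like. The label of the samples is crypt cells, and *Vil1* and *Epcam*, which mark the epithelium, were detected in 62.2% and 81.8% of WT cells and in 61.7% and 83.5% of ROBO cells. Clusters are called here by number, together with their leading genes.

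The order of the cells in the matrices bears on every result below. Total UMIs fell from column to column in both matrices, except at 4 places in WT and 7 in ROBO, where they rose by at least 4.40-fold. The columns thus form 5 runs in WT and 8 in ROBO, each sorted by depth. The runs hold between 102 and 445 cells, and the enterocyte-like cells of a run number between 46 and 170. No label says what a run is, and there are 13 runs for 16 samples, so the runs were not used as replicates and their values are given one by one. The lowest total in a run was 1394 UMIs in WT run 1 and 1106, 1404 and 1554 UMIs in ROBO runs 6, 7 and 8, and between 463 and 594 UMIs in the other 9 runs.

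*Sis* was present in some runs and almost absent from others, in both genotypes. In enterocyte-like cells of WT runs 1 to 5, its level was 12.2, 0.0565, 0.183, 0 and 9.41 UMIs per 10000 UMIs. In ROBO runs 1 to 8 it was 0.146, 0, 0.329, 0.189, 0, 12.02, 12.2 and 10.4. The runs with *Sis* were WT runs 1 and 5 and ROBO runs 6, 7 and 8, with 188, 297, 219, 148 and 140 UMIs, while no other run had more than 4. The counts of 0 in WT run 4 and ROBO runs 2 and 5 allow up to 0.203, 0.343 and 0.448 per 10000. No run had a level in between, and both kinds of run occurred in both genotypes.

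*Lct* was detected in every run. Its level in WT runs 1 to 5 was 18.5, 36.6, 44.8, 37.4 and 9.16 per 10000, and in ROBO runs 1 to 8 it was 36.9, 33.1, 39.7, 41.8, 40.0, 15.04, 11.1 and 11.9. The runs with the lowest *Lct* levels were the same ones in which *Sis* was present. Even there, *Lct* had between 134 and 289 UMIs in a run. The highest of these levels, in WT run 1, had an interval of 16.4 to 20.7, and the lowest of the others, in ROBO run 2, one of 29.4 to 37.1, so the intervals did not overlap.

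*Mgam* followed *Sis*, on a higher base. Its level in WT runs 1 to 5 was 7.60, 2.71, 1.71, 1.56 and 10.4 per 10000, and in ROBO runs 1 to 8 it was 2.19, 1.83, 2.38, 1.52, 1.34, 9.39, 11.2 and 8.75. The runs with *Sis* thus had the 5 highest *Mgam* levels, but unlike *Sis*, *Mgam* had at least 9 UMIs in each of the other runs.

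*Prdm1* was low throughout and ran the other way. In WT runs 1 to 5 it had 2, 15, 14, 11 and 0 UMIs, or 0.130, 0.848, 0.856, 0.745 and 0 per 10000. In ROBO runs 1 to 8 it had 12, 8, 6, 14, 5, 2, 1 and 2 UMIs, or 0.876, 0.915, 0.493, 1.33, 0.747, 0.110, 0.0826 and 0.148 per 10000. In WT run 5, with 170 enterocyte-like cells, the count of 0 allows up to 0.0951 per 10000. The runs with *Sis* had at most 2 *Prdm1* UMIs each and all the others at least 5, though single counts this low are imprecise.

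*Treh* was sparse, with 77 UMIs over all enterocyte-like cells. It had 4, 3, 6, 3 and 28 UMIs in WT runs 1 to 5 and 2, 1, 1, 6, 1, 6, 4 and 12 in ROBO runs 1 to 8. The highest levels, 0.887 per 10000 in WT run 5 and 0.889 in ROBO run 8, were in runs with *Sis*. WT run 1, which had *Sis* too, lay at 0.260 (0.0708 to 0.666), no higher than WT run 3 at 0.367 (0.135 to 0.798).

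**Figure D1:**
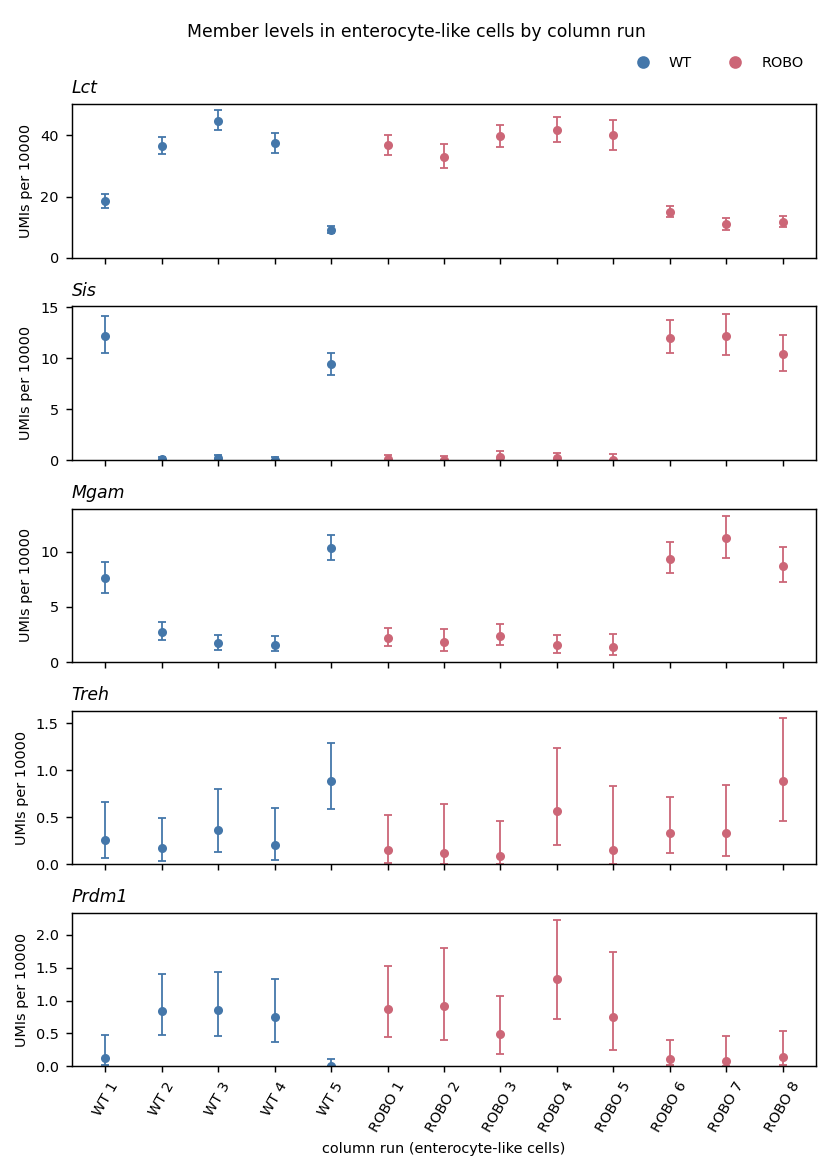
Level of each gene in enterocyte-like cells of each column run, in UMIs per 10000 UMIs of that run (y axes, which differ between genes), with exact Poisson 95% intervals for counting error; blue points are WT and red points ROBO. *Sis* lies between 9.41 and 12.2 in WT runs 1 and 5 and ROBO runs 6 to 8 and at or under 0.329 in the others, and *Lct* lies between 9.16 and 18.5 in the former and between 33.1 and 44.8 in the latter.

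Markers of several cell classes moved with these levels. The 24 enterocyte markers found in the matrices summed to 356 to 649 per 10000 in the runs with *Sis*. In the others they summed to 1122 to 1488. Of these sums *Apoa4* alone held 86 to 216 against 608 to 823. *Fabp1* went the other way, at 42.3 to 53.8 against 24.7 to 43.0, as did *Anpep* at 3.30 to 11.2 against 0.677 to 1.33. *Alpi* lay between 13.3 and 19.1 in every run. The 12 stem markers summed to 3.30 to 4.82 in the runs with *Sis* against 5.26 to 7.59 in the others. The 14 transit amplifying markers summed to 7.73 to 12.6 in the runs with *Sis* against 2.39 to 6.92 in the others, apart from ROBO run 2 at 10.9. The part of these differences in the levels of the members was not tested. Summed over the 10 listed goblet markers, levels stood at 16.2, 1.19, 1.59, 1.83 and 8.62 per 10000 in enterocyte-like cells of WT runs 1 to 5 and at 1.31, 1.95, 2.47, 0.758, 1.04, 10.6, 5.95 and 9.41 in ROBO runs 1 to 8, highest in the runs with *Sis*. In enterocyte-like cells with no goblet marker UMI at all, *Sis* still stood at 15.9 and 9.30 per 10000 in WT runs 1 and 5 and at 9.43, 18.1 and 11.7 in ROBO runs 6, 7 and 8, and goblet-like cells themselves had 0.529 (0.282 to 0.905). The 10 Paneth markers ran between 1.87 and 6.66 in sum. Immune markers stood between 0 and 0.597 (12 of 19 detected, with *Cd3e*, *Nkg7*, *Mcpt1* and *Mcpt2* among those at 0), and the 12 fibroblast markers between 0 and 0.127, with *Col1a1*, *Col3a1* and *Pdgfra* at 0.

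Set against all genes, differences between runs were common. Of 3682 genes with at least 100 UMIs in enterocyte-like cells, 32.9% had a highest run at least 4-fold above the lowest, with 0.1 per 10000 added to each level, so that the 3 members with enough UMIs (*Lct*, *Sis* and *Mgam*), which all passed this fold, are not set apart by passing it. In size, the log2 spread between highest and lowest run was 6.95 for *Sis*, the fifth largest of the 3682, 2.97 for *Mgam*, at place 312, and 2.28 for *Lct*, at place 823. The median over all 3682 genes was 1.67.

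The joint presence of *Lct* and *Sis* was counted in single enterocyte-like cells at a common depth of 912 UMIs per cell, the lower quartile, to which deeper cells were thinned at random. The 124 WT and 93 ROBO cells that were shallower were not used. Over all runs together, both genes were detected in 46 of 381 WT cells, or 12.1% (9.0 to 15.8%), and in 49 of 394 ROBO cells, or 12.4% (9.34 to 16.1%). *Lct* alone was found in 54.6% of WT and 57.4% of ROBO cells, *Sis* alone in 7.87% and 6.60%, and neither in 25.5% and 23.6%. Unthinned, both were detected in 17.2% of 505 WT and 16.8% of 487 ROBO cells. *Lct* and *Sis* thus occurred in the same cells as well as apart, at shares that were close in the 2 genotypes.

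Over all runs together, *Sis* was no more frequent in cells with *Lct* than in cells without it. It was found in 18.1% of 254 WT cells with *Lct* and in 23.6% of 127 without, which is -5.51 percentage points apart (-14.7 to 2.85, by Newcombe's method). In ROBO it was found in 17.8% of 275 and 21.8% of 119 cells, a difference of -4.03 points (-13.2 to 4.13). Both intervals hold 0.

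Within the runs that held *Sis*, the difference had the opposite sign. In WT run 1, 21 of 38 cells with *Lct* had *Sis*, or 55.3%, against 3 of 16 cells without *Lct*, or 18.8%, a difference of 36.5 points (7.70 to 55.5). In WT run 5 these shares were 63.9% of 36 and 35.1% of 77 cells, a difference of 28.8 points (9.07 to 45.6). *Sis* was therefore the more frequent in the cells that also had *Lct*.

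The ROBO runs had the same sign. In ROBO run 6 the shares were 52.4% of 42 and 26.8% of 41 cells, a difference of 25.5 points (4.50 to 43.6). In ROBO run 7 the difference was 23.4 points (-4.83 to 46.9) and in ROBO run 8 it was 26.9 points (-0.697 to 50.3), and both of these intervals hold 0. The difference was above 0 in 5 of these 5 runs, and unthinned it was between 11.5 points, in ROBO run 7, and 40.7 points, in WT run 5. Among cells with no goblet marker UMI, which are few, it was above 0 in WT runs 1 and 5 (51.4 and 32.7 points) and ROBO runs 6 and 8 (19.3 and 33.3 points) but -6.94 points (-44.4 to 34) in ROBO run 7, over 17 cells. In the other 8 runs the thinned cells with *Sis* numbered 0 to 2 in each, and all 4 of them also had *Lct*. They came from WT run 3 and ROBO runs 3 and 4. Most thinned cells there had *Lct* in any case, at 67 of 74, 47 of 54 and 34 of 39.

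In 4 of these 5 runs most cells with *Sis* had *Lct* as well. Of the thinned cells with *Sis*, 21 of 24 in WT run 1 and 23 of 50 in WT run 5 had *Lct*, as did 22 of 33 in ROBO run 6, 15 of 24 in ROBO run 7 and 10 of 16 in ROBO run 8. WT run 5 had the lowest share, at 46.0%, and it also had the lowest *Lct* level of all runs.

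**Figure D2:**
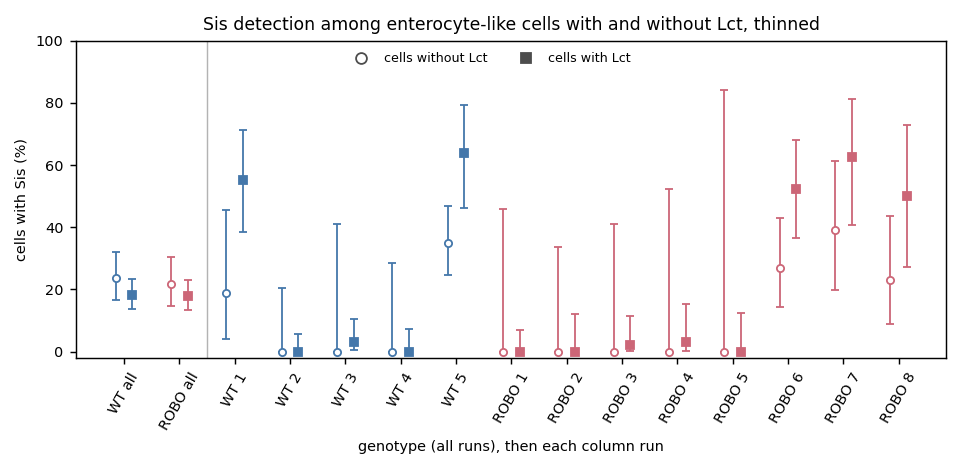
Percentage of thinned enterocyte-like cells with *Sis* (y axis) among cells without *Lct* (open circles) and with *Lct* (filled squares), for each genotype over all runs and then for each column run, with exact Clopper-Pearson 95% intervals. Over all runs the pair of shares lies at 23.6% and 18.1% in WT, while in WT run 1 it lies at 18.8% and 55.3%.

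The same was seen in the cells with the highest counts. In WT run 1 the cell with the most *Sis* had 21 *Sis* and 13 *Lct* UMIs, and in WT run 5 it had 19 *Sis* and 21 *Lct* UMIs. In ROBO runs 6, 7 and 8 the corresponding cells had 26, 26 and 32 *Sis* UMIs together with 10, 6 and 14 *Lct* UMIs. Each of these 5 cells thus held at least 6 molecules of each gene. They were also deep, with totals of 5185, 4438, 7439, 4373 and 5682 UMIs in this order of runs. The medians of enterocyte-like cells in these runs were 2446, 1217, 1836, 2535 and 2608 UMIs. The part of depth or of joined cells in these high counts was not tested. In the runs almost without *Sis*, the cells with the most *Lct*, at 43 UMIs in WT run 2, 38 in WT run 3, 26 in WT run 4 and 47 in ROBO run 3, had 0 *Sis* UMIs. An exception among the runs with *Sis* was the cell with the most *Lct* in ROBO run 7, which had 28 *Lct* and 0 *Sis* UMIs and fell in cluster 5.

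**Figure D3:**
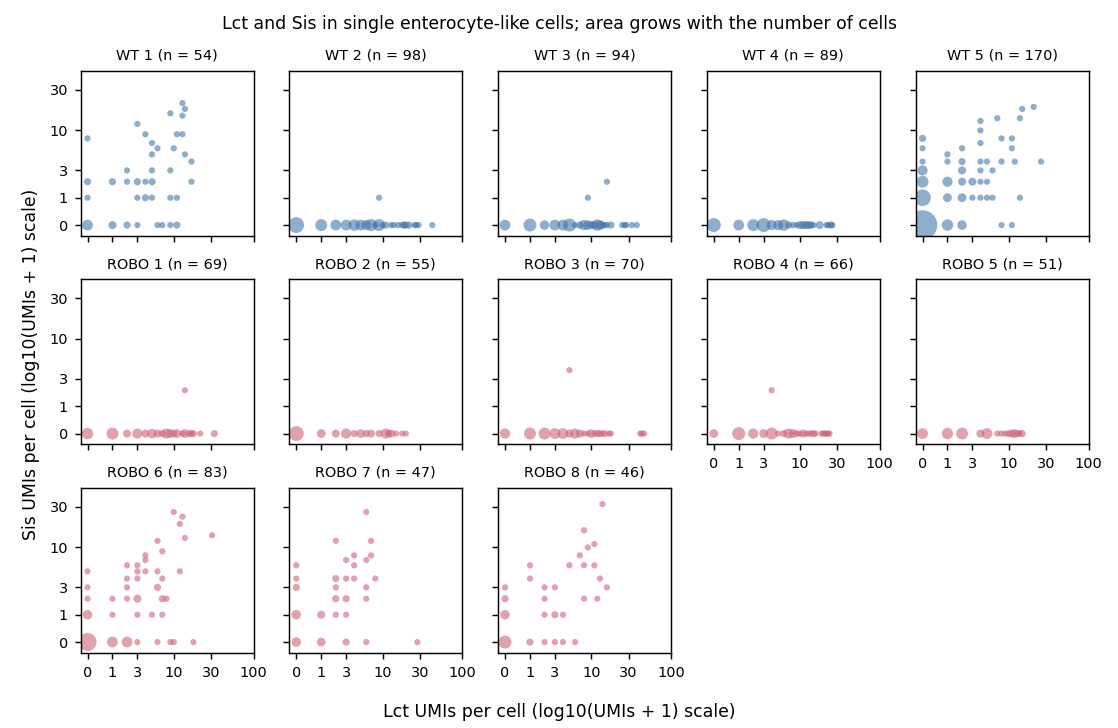
*Lct* UMIs (x axis) and *Sis* UMIs (y axis) in each enterocyte-like cell of each column run, on log10(UMIs + 1) scales, with the area of a point growing with the number of cells at that pair of counts; blue is WT and red ROBO, and n is the number of cells. In WT runs 2 to 4 and ROBO runs 1 to 5 nearly all cells lie on the x axis at 0 *Sis* UMIs, while in the other runs cells high in *Sis*, such as the one with 32 *Sis* and 14 *Lct* UMIs in ROBO run 8, lie off both axes.

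The share of *Lct* among *Lct* plus *Sis* UMIs was taken in enterocyte-like cells with at least 10 such UMIs, of which there were 108 in WT and 118 in ROBO. A molecule of either gene may not be captured with the same efficiency, so the share is compared between cells and not read as a ratio of transcripts. Over all runs the median share was 100% in both genotypes, with 73 WT and 83 ROBO cells at exactly 100% and none at 0. No cell could lie at 0, because cells without *Lct* had at most 8 *Sis* UMIs. The 42 WT and 25 ROBO cells with *Sis* alone, unthinned, are thus left out by the limit of 10. The lowest cell lay at 20% in WT and at 14.3% in ROBO. Between 10% and 90% lay 30.6% (22.1 to 40.2%) of these cells in WT and 29.7% (21.6 to 38.8%) in ROBO.

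By run, these cells, among which cells with *Sis* alone could not occur, fell apart into cells with *Lct* only and cells with a mixture. In WT runs 2, 3 and 4 the median share was 100%, and the lowest cell lay at 88.9%. In WT run 1 the median was 57.0% over 20 cells, from 20% to 100%, and in WT run 5 it was 52.5% over 15 cells, from 23.5% to 100%. Between 10% and 90% lay 17 of 20 and 13 of 15 of these cells. They are the cells with the most UMIs of these genes and only part of the enterocyte-like cells, 20 of 54 in WT run 1 and 15 of 170 in WT run 5. Among all 170 cells of WT run 5, unthinned, 52 had both genes, and 38 of the 90 with *Sis* lacked *Lct*.

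ROBO showed the same 2 patterns. In ROBO runs 1 to 5 the median was 100%, and the lowest cell lay at 87.5%. In ROBO runs 6, 7 and 8 the medians were 51.9% over 15, 38.4% over 10 and 53.6% over 12 cells, with 13, 9 and 12 cells between 10% and 90%. They are again only part of the 83, 47 and 46 enterocyte-like cells of these runs. Within these 3 runs and WT runs 1 and 5, the share varied more between cells than counting allows if all cells of a run had 1 share, by a variance of 3.19 to 5.87 times the binomial one.

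**Figure D4:**
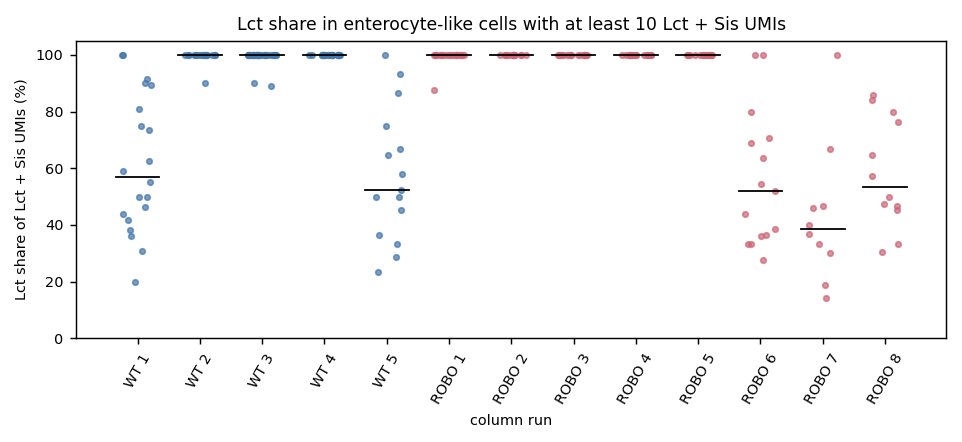
Share of *Lct* among *Lct* plus *Sis* UMIs (y axis, %) in each enterocyte-like cell with at least 10 such UMIs, by column run (x axis), with the run's median as a black line; blue is WT and red ROBO, and points are spread sideways at random. Medians lie at 100% in WT runs 2 to 4 and ROBO runs 1 to 5 and between 38.4% and 57.0% in the other 5 runs.

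The enterocyte-like clusters divided along the same lines, although the members were left out of the clustering. Cluster 1 was led by *Cubn*, *Gm2061*, *Slc7a15*, *Lect2* and *Lct*, in that order. It had 41.2 (39.8 to 42.8) *Lct* and 0.155 (0.0775 to 0.278) *Sis* UMIs per 10000. Cluster 5, led by *Gpx3*, *Mfi2* and *Ada*, had 33.3 *Lct* and 0.0314 *Sis*. Both were drawn mostly from the runs almost without *Sis*.

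Cluster 7, led by *Sis*, *Reg3a* and *Aldh1a1*, had 25.2 (23.4 to 27.0) *Lct* and 22.7 (21.1 to 24.4) *Sis* per 10000, and cluster 4, led by *Reg1* and *Gsdmc4*, had 4.88 *Lct* and 4.72 *Sis*. Of the 133 cells of cluster 7, 131 came from the runs with *Sis*. In these, cells with both genes were the most numerous kind in cluster 7: unthinned, 21 of 24 cells in WT run 1, 30 of 46 in WT run 5, 21 of 25 in ROBO run 6, 17 of 20 in ROBO run 7 and 13 of 16 in ROBO run 8 had both. Because clusters and runs coincide to this degree, a type of cell and a run can largely not be told apart here. The exceptions are few, as clusters 1 and 5 had 12 and 14 cells in the runs with *Sis*. In ROBO run 6 the 10 cells of cluster 5 had 23.6 (16.8 to 32.3) *Lct* and 0.606 (0.0153 to 3.38) *Sis* per 10000. The 25 cells of cluster 7 in that run had 24.4 and 26.0.

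Within clusters the difference between cells with and without *Lct* was taken unthinned, and it was above 0 in each of these runs in cluster 4 but not in cluster 7. In cluster 4 of WT run 5, 68.8% of 32 cells with *Lct* and 35.3% of 85 without had *Sis*, a difference of 33.5 points (13.2 to 49.7). In ROBO run 6 it was 37.4 points (8.26 to 59.95). It was 32.4 points (-4.91 to 59.6) in WT run 1, 5.13 (-29.4 to 37.6) in ROBO run 7 and 17.1 (-17.4 to 46.6) in ROBO run 8, with intervals that hold 0. In cluster 7 few cells lacked *Lct*, from 0 of 24 in WT run 1 to 11 of 46 in WT run 5. The difference there was 12.99 points (-10.1 to 43.4) in WT run 5, -12.5 (-31.0 to 67.3) in ROBO run 6, -10.5 (-31.4 to 69.2) in ROBO run 7 and 33.3 (-2.15 to 79.2) in ROBO run 8, and each of these intervals holds 0. The 10 cells of cluster 5 in ROBO run 6 held 1 cell with *Sis*, and it lacked *Lct*, while the other 9 had *Lct* alone.

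RNA set free from burst cells can give a cell UMIs of a gene it does not express, and immune-like cells served as a comparison. Over both genotypes, *Lct* stood at 0.553 (0.180 to 1.29) per 10000 in 46 immune-like cells against 26.4 (25.7 to 27.2) in enterocyte-like cells, and *Sis* at 0.221 (0.0268 to 0.799) against 5.24 (4.92 to 5.58). Thinned, 5.56% (0.680 to 18.7%) of 36 immune-like cells had *Lct* and 2.78% (0.0703 to 14.5%) had *Sis*, against 68.3% and 19.5% of 775 enterocyte-like cells. Unthinned, the shares were 4.35% and 2.17% against 74.3% and 23.8%, with median depths of 1750 and 1540 UMIs. For *Sis* the pooled level stands for 5 runs, WT runs 1 and 5 and ROBO runs 6 to 8. In the other 8 runs enterocyte-like cells had 0 to 0.329 per 10000, and clusters 1 and 5 had 0.155 and 0.0314. These levels are within or under the interval of the immune-like cells, which rests on 2 *Sis* UMIs in 1 cell. In ROBO run 3 all 4 *Sis* UMIs of enterocyte-like cells lay in 1 cell of cluster 7, with 5 *Lct* and 6 *Mgam* UMIs. Whether the few *Sis* UMIs of these 8 runs are background was not tested. Whether free RNA or joined cells account for single cells with 1 or 2 UMIs of the second gene was not tested. Scrublet called 2 WT and 4 ROBO cells doublets.

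Outside the enterocyte-like cells the members differed in how far they reached into the crypt. *Lct* stood at 0.681 (0.504 to 0.900) per 10000 in stem-like and 1.49 (1.31 to 1.702) in transit amplifying-like cells, under the pooled enterocyte-like level of 26.4. The transit amplifying-like clusters differed, with 0.434 (0.323 to 0.570) in cluster 2, led by *Sfrp5*, and 5.21 (4.47 to 6.04) in cluster 3, led by *Rn45s*. Cluster 3 thus lay near enterocyte-like cluster 4, at 4.88 (4.32 to 5.49). Cluster 6, led by *Myl7* and without a class name, had 3.94 (3.44 to 4.49). *Sis* stood at 0.0278 (0.00337 to 0.1004) in stem-like and 0.582 (0.467 to 0.717) in transit amplifying-like cells. Over both classes together it had 0.222 to 0.951 in the runs with *Sis* and 0 to 0.0590 in the others. *Sis* in 30 enteroendocrine-like cells stood higher, at 2.83 (1.51 to 4.84) from 13 UMIs in 6 cells.

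*Mgam* was the exception, being well detected in crypt cells. It stood at 2.34 (1.99 to 2.72) per 10000 in stem-like cells, 3.95 (3.64 to 4.28) in transit amplifying-like cells and 5.58 (5.25 to 5.92) in enterocyte-like cells, against 0.553 (0.180 to 1.29) in immune-like cells. Its pattern by run was seen there too. Over stem-like and transit amplifying-like cells, *Mgam* was 4.42, 1.77, 2.75, 2.02 and 4.54 per 10000 in WT runs 1 to 5, and 2.58, 1.82, 1.95, 1.98, 2.32, 4.22, 4.29 and 4.52 in ROBO runs 1 to 8. The 5 highest values were again those of WT runs 1 and 5 and ROBO runs 6 to 8. The rise of the pooled levels toward enterocyte-like cells belonged to these 5 runs, with 7.60 to 11.2 in enterocyte-like cells against 4.22 to 4.54. In the other runs enterocyte-like cells had 1.34 to 2.71 against 1.77 to 2.75. Their level was the lower one in WT runs 3 and 4 and ROBO runs 1, 4 and 5, with intervals that overlap.

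Pooled over runs, *Prdm1* was found in stem-like cells at 0.347 (0.225 to 0.513) per 10000, against 0.481 (0.387 to 0.589) in enterocyte-like cells and 0.0926 (0.0506 to 0.155) in transit amplifying-like cells. These levels mix unlike runs. In WT runs 2 to 4 and ROBO runs 1 to 5, enterocyte-like cells had 0.493 to 1.33. Stem-like and transit amplifying-like cells together had 0.115 to 0.643 there. In the runs with *Sis* neither had more than 0.148. Among enterocyte-like clusters *Prdm1* was highest in cluster 5, at 1.13 (0.791 to 1.56), and cluster 1, at 0.720 (0.536 to 0.947), and had 3 UMIs in cluster 4 and 2 in cluster 7. *Treh* was highest in cluster 7, at 1.19 (0.842 to 1.63), with 14 UMIs in cluster 4, 22 in cluster 1 and 3 in cluster 5.

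The other 3 members were then read in cells sorted by whether they had *Lct*, *Sis* or both, unthinned. Over all runs, *Mgam* stood at 2.31 (1.89 to 2.79) per 10000 in 267 WT cells with *Lct* alone, 12.8 (11.4 to 14.3) in 87 with both and 6.22 (4.73 to 8.02) in 42 with *Sis* alone. In ROBO the values were 2.21 (1.83 to 2.65) in 301, 14.9 (13.4 to 16.6) in 82 and 3.86 (2.48 to 5.75) in 25 cells. The cells with both genes had the most *Mgam* in both genotypes.

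Within each of the runs that held *Sis*, cells with both again had the most *Mgam*, while the order of the other cells varied. *Mgam* in cells with both stood at 9.90, 15.4, 14.0, 16.2 and 14.9 per 10000 in WT runs 1 and 5 and ROBO runs 6, 7 and 8. In cells with *Lct* alone it stood at 3.45, 6.47, 4.74, 8.36 and 1.35. In cells with *Sis* alone it stood at 6.48 in WT run 5 and at 3.62, 4.93 and 3.01 in the ROBO runs, while WT run 1 had only 4 such cells. The level with *Sis* alone was thus lower than that with *Lct* alone in ROBO runs 6 and 7, higher in ROBO run 8 and nearly equal in WT run 5. In cells with neither gene *Mgam* stood at 3.61 and 6.99 in WT runs 1 and 5 and at 5.08, 2.90 and 3.05 in the ROBO runs. In WT run 5 and ROBO runs 6 and 8 this was above the levels with *Lct* alone and with *Sis* alone. Cells with both were also deeper, with median totals of 1754 to 2948 UMIs in these runs.

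*Prdm1* over all runs had 37 UMIs in WT cells with *Lct* alone, 0 in cells with both and 1 in cells with *Sis* alone, and 44, 3 and 0 in ROBO. Within the runs with *Sis*, cells with *Lct* alone had 1, 0, 1, 1 and 0 *Prdm1* UMIs, so that at this depth no difference between cells with and without *Sis* was detectable inside a run. *Treh* over all runs had 15 UMIs in WT cells with *Lct* alone, 23 in cells with both and 4 in cells with *Sis* alone, and 11, 20 and 0 in ROBO, or 0.971 (0.616 to 1.46) per 10000 in WT and 0.860 (0.526 to 1.33) in ROBO cells with both. WT run 5 held 19 of those 23 UMIs. Its levels were alike, at 1.49 (0.308 to 4.37) with *Lct* alone, from 3 UMIs, and 1.435 (0.864 to 2.24) with both. In WT run 1 and ROBO runs 6, 7 and 8, cells with *Lct* alone had 0, 0, 0 and 1 *Treh* UMIs. Cells with both had 4, 6, 4 and 9 there.

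The genotypes were compared by the ratio of ROBO over WT of UMIs per 10000, with conditional exact intervals. Of 7458 genes with at least 100 UMIs over all cells, 0.442% differed by more than 2-fold, as did 0.326% of 3682 genes in enterocyte-like cells, and none of the members did. In enterocyte-like cells *Lct* had 2507 UMIs in WT and 2555 in ROBO, or 26.2 and 26.7 per 10000, a log2 ratio of 0.03 (-0.05 to 0.11). *Sis* had 489 and 515 UMIs, or 5.11 and 5.38 per 10000, a log2 ratio of 0.08 (-0.11 to 0.26). For *Mgam* the counts were 543 and 525 and the log2 ratio -0.05 (-0.22 to 0.13). These 3 ratios were near 1.

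The counts were too few for a firm value in the other two. *Treh* counted 44 UMIs in WT against 33 in ROBO, a log2 ratio of -0.41 (-1.11 to 0.27). *Prdm1* counted 42 UMIs in WT against 50 in ROBO, a log2 ratio of 0.25 (-0.37 to 0.88). Neither reached the 100 UMIs asked for a call in these cells. Over all cells the log2 ratio was 0.12 (0.05 to 0.20) for *Lct*, from 2810 and 2774 UMIs, and 0.06 (-0.11 to 0.23) for *Sis*, from 578 and 547.

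These ratios depend on how many cells each run gave to its genotype. Without WT run 5, the log2 ratio in enterocyte-like cells was -0.37 for *Lct*, 0.85 for *Sis* and 0.71 for *Mgam*, and without ROBO run 6 it was -0.42 for *Sis*. Over all cells the *Lct* ratio turned to -0.33 without WT run 5. The range of run levels was 0 to 12.2 per 10000 for *Sis* in both WT and ROBO, and 9.16 to 44.8 for *Lct* in WT against 11.1 to 41.8 in ROBO. The genotypes therefore overlapped over nearly the whole range of the runs, and the runs differed far more from each other than the pooled genotypes did.

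Other genes of the suckling intestine were listed for comparison. Of 14 such genes, 10 had at least 100 UMIs in enterocyte-like cells. The 4-fold spread between runs was passed by 8 of these 10, against 32.9% of all 3682 genes. None of the 10 differed by more than 2-fold between genotypes, where the share over all 3682 genes was only 0.326%. *Fcgrt*, which encodes the receptor that takes up maternal antibodies from milk, stood at 8.77, 71.1, 66.7, 64.4 and 3.01 per 10000 in WT runs 1 to 5 and at 72.6, 67.4, 82.1, 66.8, 100.8, 12.6, 10.2 and 3.85 in ROBO runs 1 to 8. It was lowest in the runs with *Sis*. *Dab2*, an adaptor of endocytosis, had between 3.09 and 7.32 in WT runs 2 to 4 and ROBO runs 1 to 5 and between 0 and 0.325 in the other runs, and *Cubn*, an endocytic receptor, between 5.52 and 8.44 and between 0.761 and 1.04.

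Not every gene of that list went this way. The urea cycle genes *Otc* and *Cps1* were highest in the runs with *Sis*: *Cps1* stood at 9.36, 4.01, 5.44, 5.01 and 12.6 in WT runs 1 to 5 and at 3.87, 5.83, 3.29, 5.78, 4.48, 9.11, 12.2 and 12.4 in ROBO runs 1 to 8. *Lrp2* and *Ass1* had 0 UMIs in enterocyte-like cells.

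Of 7 genes listed as rising at weaning, 5 had at least 100 UMIs. All 5 of these passed the 4-fold spread, against 32.9% of all genes, but not in 1 direction. *Arg2*, an arginase, stood at 4.74, 0.565, 0.856, 0.474 and 4.03 in WT runs 1 to 5 and at 0.438, 1.14, 0.575, 0, 0.299, 4.56, 5.04 and 5.19 in ROBO runs 1 to 8. *Pigr*, which carries antibodies into the gut lumen, stood at 18.6, 5.59, 5.14, 4.74 and 24.2 in WT and at 5.25, 4.80, 4.52, 6.44, 3.29, 14.99, 18.9 and 23.2 in ROBO. Both were highest where *Sis* was present.

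The antimicrobial gene *Reg3b* went the other way, at 0.910 and 1.90 in WT runs 1 and 5 and 1.48 to 2.20 in ROBO runs 6 to 8, against 4.89 to 21.8 in the others. The fructose carrier *Slc2a5*, with 112 UMIs in all, ranged from 0.114 to 0.917 with no such order. *Fut2* had 0 UMIs.

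**Figure D5:**
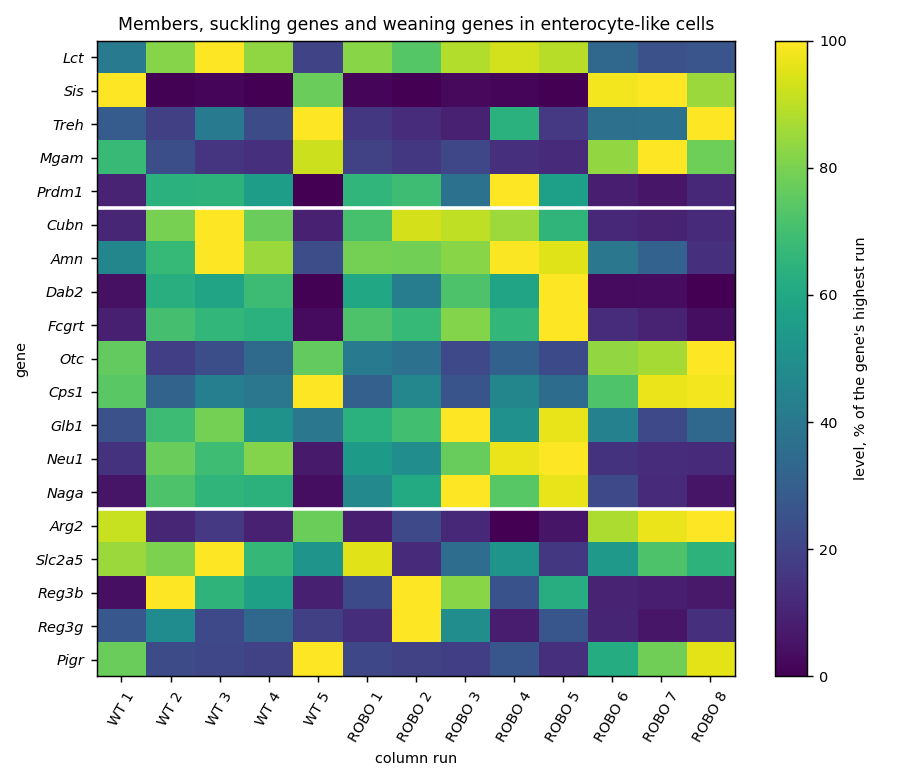
Level of the members and of suckling and weaning genes with at least 60 UMIs (rows, the 3 lists divided by white lines) in enterocyte-like cells of each column run (columns), as a percentage of the gene's own highest run; bright is high. *Sis*, *Mgam*, *Arg2*, *Pigr*, *Otc* and *Cps1* are bright in WT runs 1 and 5 and ROBO runs 6 to 8, where *Lct*, *Prdm1*, *Fcgrt*, *Cubn*, *Dab2* and *Reg3b* are dark.

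The genes that take up and use the sugars set free by these enzymes varied less. Of 13 listed, 12 had at least 100 UMIs, and 3 of these 12 passed the 4-fold spread, against 32.9% of all genes. The median log2 spread of the 12 was 1.33 against 1.67 over all genes. *Slc5a1*, the glucose and galactose carrier of the brush border, ranged from 4.35 to 10.5 per 10000 over the runs. *Galk1* and *Galt*, which take galactose into metabolism, ranged from 1.97 to 4.03 and from 0.569 to 1.33. Other brush-border hydrolases did not move together: *Alpi*, the intestinal alkaline phosphatase, lay between 13.3 and 19.1 in every run, while *Anpep*, an aminopeptidase, stood at 3.97 and 11.2 in WT runs 1 and 5 and 3.30 to 3.48 in ROBO runs 6 to 8 against 0.677 to 1.33 elsewhere. *Anpep* and *Cdx2* were the only genes of these lists with at least 100 UMIs past 2-fold between genotypes in enterocyte-like cells, with log2 ratios of -1.11 and -1.08, against 0.326% of the 3682 genes. The ratio of *Anpep* rested on WT run 5: without that run it was 0.50 (0.14 to 0.85), with 2.19 per 10000 in ROBO and 1.56 in WT. That of *Cdx2*, from 106 UMIs, lay between -1.36 and -0.89 with any 1 run left out.

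Among transcription factors, 6 of the 12 with at least 100 UMIs passed the 4-fold spread, against 32.9% of all genes. *Maf*, with a log2 spread of 1.92, did not pass it and lay between 5.88 and 7.46 in WT runs 2 to 4 and ROBO runs 1 to 5 and between 1.90 and 2.56 elsewhere. *Hnf4g*, a nuclear receptor of enterocytes, passed it and was highest in WT runs 1 and 5 and ROBO runs 6 to 8, at 4.35 to 7.43 against 1.49 to 2.70. *Elf3* and *Cdx1* differed little, with log2 spreads of 0.52 and 0.78.

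Genes that mark the position along the intestine were read as well. The authors isolated the crypts by their organoid protocol, which takes the duodenum and jejunum. *Fabp6* and *Slc10a2*, used here as markers of the ileum, had 0 UMIs in enterocyte-like cells of every run. *Gata4*, a factor of the proximal small intestine, was found in each run at 0.114 to 1.05 per 10000. Of the proximal list, 5 of 9 genes passed the 4-fold spread, against 32.9% of all genes, but in both directions. *Apoa4* and *Slc40a1* were lowest in the runs with *Sis* and *Adh1* was highest there. The summed level of the proximal list ranged from 148 to 878 per 10000, mostly *Apoa4*, and that of the distal list, which holds *Cubn* and *Amn* of the suckling list, from 11.3 to 58.7. *Cubn*, *Reg3b*, *Anpep*, *Alpi*, *Apoa4* and *Slc5a1* were also among the markers that named the enterocyte-like clusters. The part of position, age or litter in the difference between runs was not tested, and the labels give none of them by run.

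Last, genes were ranked by the Pearson correlation of log-normalized values with *Lct* and *Sis* over the 992 enterocyte-like cells, among 3682 genes. The cells share runs and differ in depth, so these values describe the cells and carry no test. The highest for *Lct* were *Apoa4* (r = 0.58), *Apoa1* (0.57), *Ace* (0.54), *Clec2h* (0.53) and *Sepp1* (0.53), and the lowest were *Dmbt1* (-0.57), *Krt19* (-0.48), *Mt2* (-0.41), *Lgals2* (-0.40) and *Gpx1* (-0.37). The highest for *Sis* were *X2210407C18Rik* (0.53), *Aldh1a1* (0.51), *Anpep* (0.49), *Reg1* (0.45) and *Ces2e* (0.45), and the lowest were *Fcgrt* (-0.40), *Gpx3* (-0.33), *Lect2* (-0.30), *Npl* (-0.28) and *Mamdc4* (-0.28). None of the genes named here was among the highest of both. Lists this short, out of 3682 genes, would seldom share a gene by chance. The lack of a shared gene therefore does not set *Lct* and *Sis* apart.

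With each value taken as the deviation from the mean of its run, the picture changed. The correlation of *Lct* with *Sis* went from -0.08 to 0.30, that of *Lct* with *Mgam* from -0.07 to 0.19, and that of *Sis* with *Mgam* from 0.51 to 0.33. *Fabp1*, a fatty acid binding protein of enterocytes, was then the highest for both *Lct* (0.49) and *Sis* (0.33), and *Dmbt1* the lowest for both (-0.37 and -0.36). Run by run, the correlation of *Lct* with *Sis* was 0.41 and 0.46 in WT runs 1 and 5 and 0.49, 0.30 and 0.57 in ROBO runs 6, 7 and 8.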

How the data were processed

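Single cells were captured on a Bio-Rad ddSEQ instrument and libraries made with the SureCell WTA 3′ kit. The authors made gene-by-cell tables in BaseSpace and deposited them as UMI counts without normalization, 1 table per genotype; the submitters' processing notes name mm10 and GRCm38, and the aligner and its settings are not given in the sources used here. All deposited cells were kept. Counts of both matrices were combined in Seurat 5.3.0 (R 4.3.3), log-normalized to 10000 per cell, and clustered at a resolution of 0.8 on 20 principal components of 2000 variable genes, of which the 3 that were members were left out, with S and G2M scores (42 and 54 genes) regressed out. A cluster took a class name, written with -like, from at least 3 listed markers raised 1.5-fold (0.1 added) in at least 10% of its cells, by the highest mean log2 fold, and none where markers of other classes outnumbered its own among its 10 leading genes, a rule set after the clusters were seen. Column runs were opened where a cell had more than 2 times the UMIs of the one before, also after the data were seen.

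Levels are UMIs summed over cells per 10000 UMIs, with exact Poisson 95% intervals; shares have Clopper-Pearson, differences of shares Newcombe and ratios conditional exact intervals (scipy 1.17.1). A count of 0 was given the limit of 3 counts. PCR and droplets may make UMIs less independent than these intervals assume, so they cover counting error only. Doublets were called with Scrublet (scanpy 1.11.5) and kept except in an alternative. The functions were tested on simulated data. The members and the gene lists were chosen with earlier results of these data known. Named are the members, genes of the lists that carry a comparison, and the 5 highest and 5 lowest correlations with *Lct* and *Sis*. Some genes of these lists are not reported here. Alternatives covered thinning, detection limit, clustering, scaling, cell weight, doublets and, added after seeing the data, leaving out each column run.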

Additional observations from a re-analysis of the deposited data

How the results depend on the processing

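No paired analysis was possible because the cell names carry no sample number. The pooled values rest on cells of 1 pooled sample per genotype, and their intervals leave out the spread between mice.

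The share of enterocyte-like cells with both *Lct* and *Sis*, 12.1% in WT and 12.4% in ROBO, was 17.2% and 16.8% without thinning, 20.7% and 25.1% with cells thinned to 1550 UMIs, 6.53% and 8.42% with at least 3 UMIs asked of each gene, and 6.86% and 7.54% with cells chosen by at least 10 UMIs of enterocyte markers in place of clusters. The difference between cells with and without *Lct*, -5.51 and -4.03 points, was 4.61 and 7.35 points with at least 3 UMIs, 3.54 and 6.18 with the marker choice, and 12.6 in ROBO with at least 2 UMIs, so its sign was not fixed over all runs. Leaving out each column run in turn gave shares of 7.64 to 15.2% in WT, lowest without WT run 1 (8.58% without WT run 5), and 8.68 to 14.5% in ROBO. It gave differences of -12.8 to 4.55 points in WT, highest without WT run 5, and -7.64 to -1.13 in ROBO. Of cells with at least 10 *Lct* plus *Sis* UMIs, 30.6% and 29.7% had a mixed share; this was 40.9% in ROBO with 20 UMIs asked, and 18.2 to 40.8% in WT (lowest without WT run 1, 40.8% without WT run 3) and 21.4 to 34.7% in ROBO with a run left out.

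The genotype ratio (log2, ROBO over WT) in enterocyte-like cells was 0.11 for *Lct* and -0.23 for *Sis* with every cell weighted equally, 0.15 for *Lct* with the marker choice, and -0.10 for *Lct* and 0.15 for *Mgam* at a resolution of 0.4. Over all cells it was -0.37 for *Sis* with equal weights. With a run left out, the ratio in enterocyte-like cells ranged from -0.37 to 0.26 for *Lct*, -0.42 to 0.85 for *Sis*, -0.31 to 0.71 for *Mgam*, -0.85 to 0.47 for *Treh* and -0.32 to 0.60 for *Prdm1*. It was -1.35 to 0.50 for *Anpep*, whose sign turned without WT run 5 (0.50), and -1.36 to -0.89 for *Cdx2*. Over all cells it ranged from -0.33 to 0.36 for *Lct*, whose sign turned without WT run 5 (-0.33) and without ROBO run 4 (-0.0035), from -0.44 to 0.87 for *Sis*, -0.19 to 0.45 for *Mgam*, -0.72 to 0.25 for *Treh* and -0.19 to 0.70 for *Prdm1*. The number of genes past 2-fold, 33 over all cells and 12 in enterocyte-like cells, was 295 and 270 with at least 20 UMIs and 1312 and 1250 with at least 1 UMI in each genotype, where the low counts alone widen the ratios. The cause of the other shifts was not tested. Of 128 values under settings other than leaving out a run, 104 stayed within the interval or count of the reported value.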
